A study of Homo sapiens with 6 samples.

Results

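Levels of 57 listed genes for DNA damage signalling and repair were followed on 6 expression arrays of clones made from the human embryonic stem cell line H9. The members were taken by symbol from a fixed list and not by their measured values, though the list was chosen with earlier results of these data known. Of the 57, 33 had a named row among the 14884 named genes of the table. No named row was at hand for the other 24, which were not analysed here. These were ATM, RNF8, RNF168, RBBP8, BRCA1, BRCA2, BLM, WRN, PRKDC, LIG4, NHEJ1, POLQ, FANCA, FANCB, FANCC, FANCL, FANCM, FANCD2, FANCI, XPA, XPC, ERCC1, ERCC2 and ERCC5. The 33 measured members were 6 of 7 damage kinase and checkpoint genes, 3 of 5 genes of break-site chromatin signalling, 4 of 5 genes of end sensing and resection, 8 of 12 homologous recombination genes, 4 of 8 end joining genes, 2 of 9 Fanconi genes, 2 of 2 mismatch repair genes, 0 of 5 nucleotide excision repair genes and 4 of 4 genes of base excision and single-strand break repair.

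Clones of the gamma_ON group expressed an H2A.X whose S139E change puts glutamate at the serine that damage kinases phosphorylate. In the gamma_OFF group the expressed H2A.X had T136A together with S139A, so neither position could be phosphorylated. CTRL clones expressed eGFP and no added H2A.X. In every group the lentiviral vector drove expression from the EF1α promoter and also encoded eGFP, sorting selected cells positive for eGFP and for a surface antigen of pluripotent cells, and colonies grown from single cells were expanded on mouse embryonic fibroblasts with 8 ng/ml bFGF. Each group had 2 arrays of total RNA. The labels do not say whether the 2 arrays of a group came from separate clones or cultures, so each p-value covers the spread between the samples at hand, and that spread may be technical. The labels name no deletion of the cells' own H2A.X gene, no group carried added H2A.X without a substitution, and the level of H2AX itself was not analysed here.

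A DNA double-strand break is sensed by the MRE11, RAD50 and NBN complex and by the Ku proteins, and the kinases ATM, ATR and DNA-PK then phosphorylate H2A.X in the chromatin around it. MDC1 binds phosphorylated H2A.X and brings in ubiquitin ligases, after which TP53BP1 or BRCA1 complexes steer the break toward end joining or homologous recombination. Recombination needs a sister chromatid and is used in S and G2 phases, and many of its genes are transcribed most in cycling cells. Human pluripotent stem cells divide rapidly and spend much of the cycle in S phase.

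Over the 33 measured genes the gamma_ON arrays tended to read highest and gamma_OFF replicate 2 lowest, by small amounts, and no gene passed the test. The highest of the 6 values lay on gamma_ON replicate 1 for 24 genes, and the lowest lay on gamma_OFF replicate 2 for 21 genes. The median deviation from each gene's mean over the 6 arrays was 0.24 and 0.11 log2 units on the gamma_ON arrays, -0.03 and -0.24 on the gamma_OFF arrays, and -0.06 and 0.03 on the CTRL arrays. Replicates 1 and 2 thus lay far apart in gamma_OFF, whose replicate 1 read close to CTRL. Within a group, the median absolute gap between the 2 arrays over these genes was 0.15 in gamma_ON, 0.22 in gamma_OFF and 0.10 in CTRL. Replicate 1 read higher than replicate 2 for 29 of 33 genes in gamma_ON, against 61.5% of all genes. In gamma_OFF replicate 1 was the higher for 28 of 33, against 49.5% of all genes, and in CTRL for 9 of 33, against 50.5% of all genes.

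**Figure D1:**
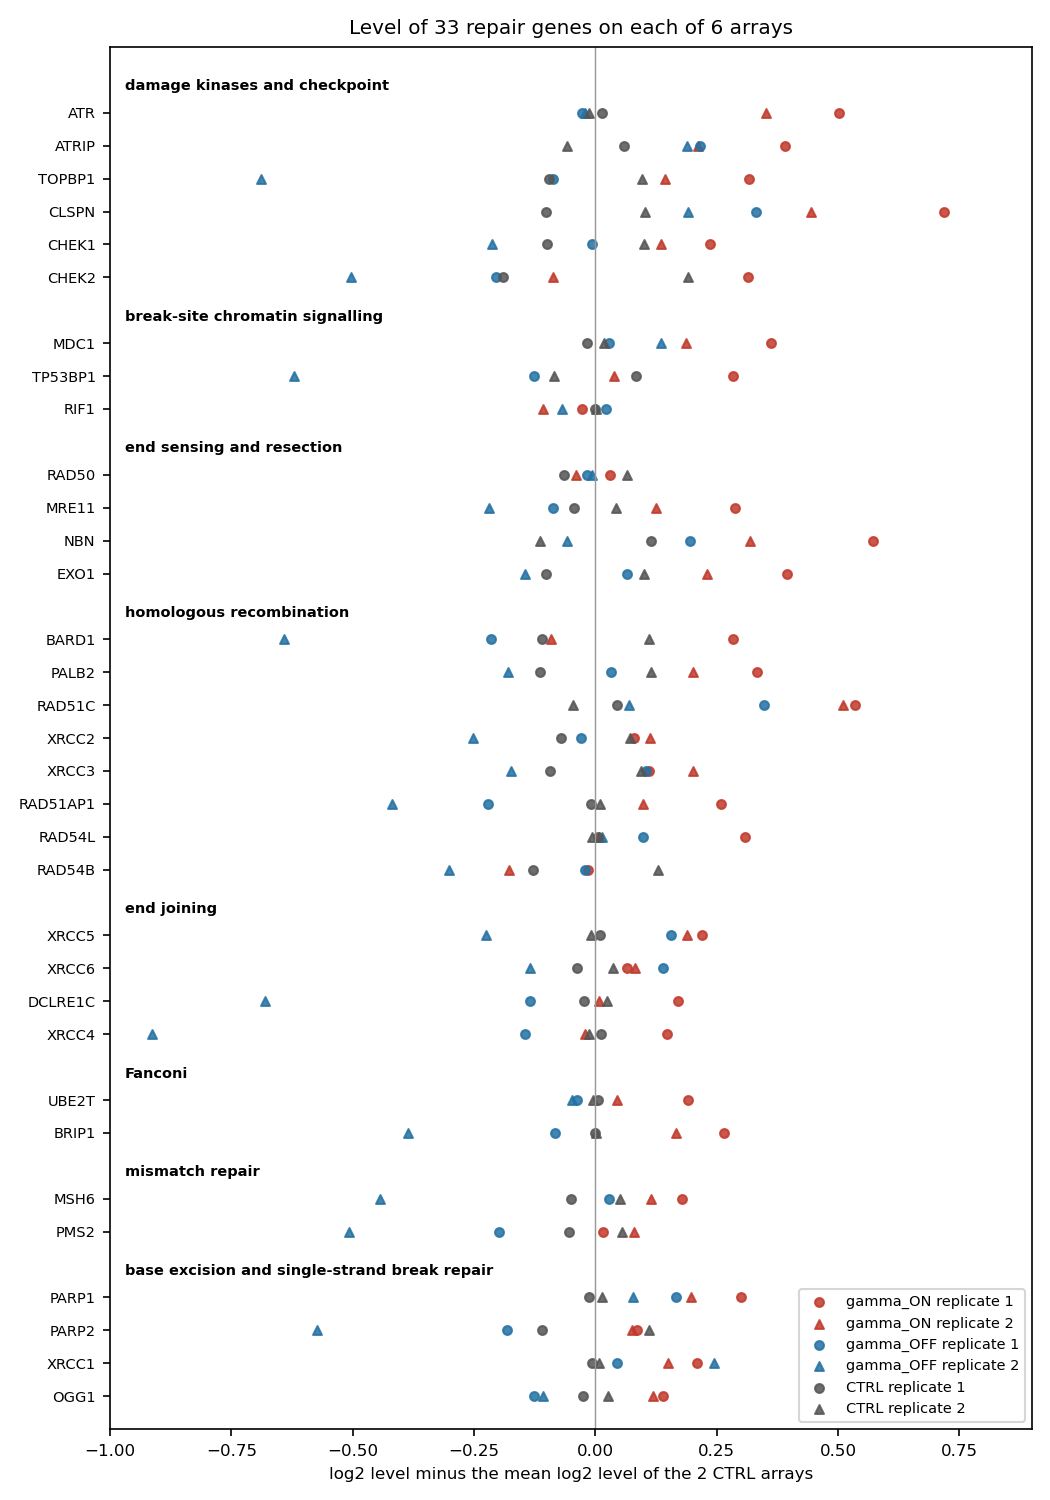
Each row is 1 repair gene and each point 1 array, with the x axis giving the log2 level minus the mean of the 2 CTRL arrays (red, gamma_ON; blue, gamma_OFF; grey, CTRL; circles, replicate 1; triangles, replicate 2). Gamma_ON replicate 1 is the highest array for 24 of 33 genes and gamma_OFF replicate 2 the lowest for 21, with XRCC4 spread widest in gamma_OFF.

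Differences were tested with limma, a linear model with moderated variances, in 1 fit over all 6 arrays, with Benjamini-Hochberg adjustment over all 14884 genes and a call at an adjusted p under 0.05. In gamma_ON against CTRL limma called 0 of the 33 genes, where it called 1.55% of all genes. At an unadjusted p under 0.05 it gave 7 genes, all higher in gamma_ON, or 21.2%, against 8.65% of all genes in that direction. In gamma_OFF against CTRL 0 were called, where 8.85% of all genes were, and 6 genes, all lower in gamma_OFF, had an unadjusted p under 0.05, or 18.2% against 16.3% of all genes in that direction, a share near the background. In gamma_ON against gamma_OFF 0 were called, where 5.99% of all genes were. Here 18 genes, all higher in gamma_ON, had an unadjusted p under 0.05, or 54.5% against 19.4% of all genes in that direction. The F test over the 3 groups also called 0 of the 33, against 8.32% of all genes, with 14 at an unadjusted p under 0.05, or 42.4% against 34.3%. The 3 comparisons share their arrays pairwise, so they are not independent of each other.

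Most differences between gamma_ON and the other groups had the same sign. In gamma_ON against CTRL 30 of 33 genes had a log2 difference above 0, as did 54.4% of all genes, with a median of 0.16 against 0.02 over all genes. Both gamma_ON arrays lay above both CTRL arrays for 23 of the 33, as they did for 30% of all genes. In gamma_ON against gamma_OFF 32 of 33 were above 0, against 52.9% of all genes, with a median of 0.32 against 0.02, and 26 did not overlap, against 35.8% of all genes. Both gamma_ON arrays lay above all 4 other arrays for 19 of the 33, as for 17.4% of all genes. In gamma_OFF against CTRL 24 of 33 were below 0, against 48.1% of all genes, with a median of -0.07 against 0.01, and 13 did not overlap in that direction, against 30.2% of all genes. That last direction turned over with the scaling of the arrays. After quantile normalization 19 of the 33 were above 0, with a median of 0.039 against 0.025 over all genes, and after setting all arrays to a common median and SD 17 were above 0, with a median of 0.023 against 0.041.

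The gamma_ON against gamma_OFF difference also depended on scaling and on 1 array. Gamma_OFF replicate 2 had the narrowest signal, with an SD over all genes of 1.64, against 1.70 on gamma_OFF replicate 1 and 1.76 to 1.81 on the gamma_ON and CTRL arrays. After quantile normalization the median over the 33 genes was 0.15 with 24 above 0, after common scaling it was 0.22 with 25 above 0, and without gamma_OFF replicate 2 it was 0.22 with 30 above 0. Without gamma_OFF replicate 1 the median was 0.43 and limma called 14 of the 33, where it called 27.3% of all genes. Of gamma_OFF against CTRL, 8 genes were called without gamma_OFF replicate 1, where 23.6% of all genes were, and 0 without gamma_OFF replicate 2. The gamma_ON against CTRL median stayed between 0.12 and 0.26 whichever array was left out, with 26 to 32 of the 33 above 0.

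**Figure D2:**
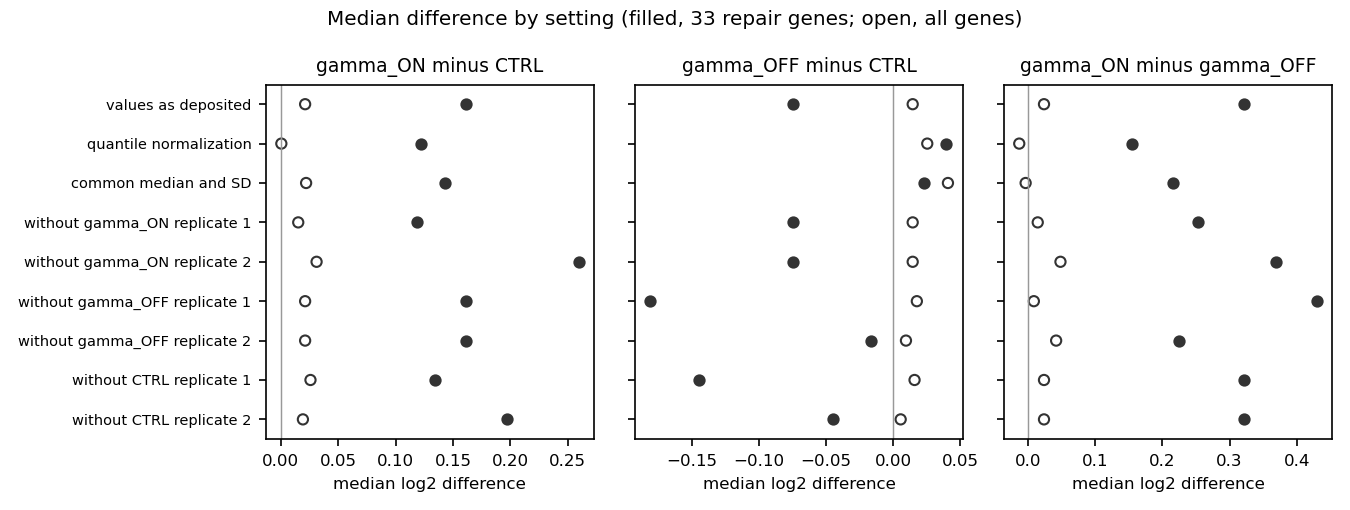
Median log2 difference over the 33 repair genes (filled) and over all genes (open) for each comparison, on the values as deposited, under 2 rescalings of the arrays, and with each array left out. The gamma_ON minus CTRL median lies above 0 in every row, while the gamma_OFF minus CTRL median is -0.07 as deposited and 0.039 after quantile normalization.

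Among the damage kinases and checkpoint genes the 6 measured members all had a log2 difference above 0 in gamma_ON against CTRL. ATR, the kinase that answers single-stranded DNA at stalled forks and resected ends, had the lowest F test p of the 33. It measured 8.10 and 7.95 log2 units in gamma_ON, 7.57 and 7.57 in gamma_OFF, and 7.61 and 7.58 in CTRL. Both gamma_ON arrays lay above the other 4, which lay within 0.04 of each other. The difference was 0.43 from CTRL (SE 0.12, adjusted p = 0.118) and 0.45 from gamma_OFF (SE 0.12, adjusted p = 0.0529), and the F test gave an adjusted p of 0.0565. Between gamma_OFF and CTRL it was -0.02, with a 95% confidence interval from -0.29 to 0.24.

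CLSPN encodes claspin, the adaptor through which ATR activates CHEK1. It stood at 9.28 and 9.01 in gamma_ON, 8.89 and 8.76 in gamma_OFF, and 8.46 and 8.67 in CTRL, so the 3 groups did not overlap. Gamma_ON exceeded CTRL by 0.58 (SE 0.14, adjusted p = 0.0854), the largest such difference of the 33. Its dimmer row gave 0.43, but it read only 3.64 to 4.29 over the 6 arrays, below the median of all array rows, 6.17. Gamma_OFF minus CTRL was 0.26 on the brighter row and -0.11 on the dimmer row. At so low a level the dimmer row decides neither difference.

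TOPBP1, an activator of ATR, measured 9.15 and 8.98 in gamma_ON, 8.75 and 8.15 in gamma_OFF, and 8.74 and 8.93 in CTRL. Its gamma_ON minus gamma_OFF difference of 0.62 (SE 0.19, adjusted p = 0.0748) was the largest of the 33. The difference was 0.32 without gamma_OFF replicate 2 and 0.92 without gamma_OFF replicate 1. ATRIP, the partner of ATR, had 7.43 and 7.25 in gamma_ON, 7.25 and 7.23 in gamma_OFF, and 7.10 and 6.98 in CTRL, with differences of 0.30 in gamma_ON and 0.20 in gamma_OFF from CTRL. CHEK1, the effector kinase of ATR, differed by 0.19 between gamma_ON and CTRL (95% confidence interval -0.11 to 0.48). CHEK2, the effector kinase of ATM, differed by 0.11 (-0.30 to 0.53). Gamma_OFF minus CTRL was -0.35 on the brighter row of CHEK2 and -0.83 on its dimmer row, and gamma_ON minus gamma_OFF was 0.47 and 0.88. The 2 CTRL arrays of CHEK2 were 0.38 apart, and the gene has near-identical pseudogene copies, so its values are uncertain.

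**Figure D3:**
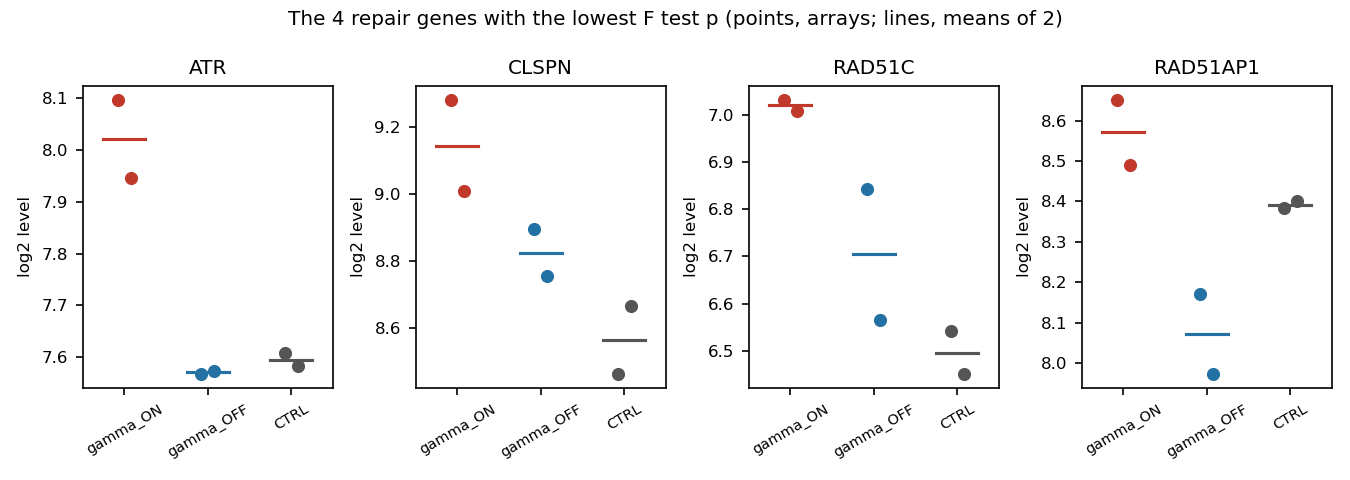
Log2 level of ATR, CLSPN, RAD51C and RAD51AP1 in each group, with 1 point per array and a line at the mean of 2; the y axes differ between panels and do not start at 0. The gamma_ON arrays are the highest in all 4 panels, while the gamma_OFF arrays lie level with CTRL for ATR and below it for RAD51AP1.

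The genes that read or follow phosphorylated H2A.X differed among themselves. MDC1, the protein that binds phosphorylated H2A.X, stood at 9.72 and 9.55 in gamma_ON, 9.39 and 9.50 in gamma_OFF, and 9.34 and 9.38 in CTRL. Its gamma_ON minus CTRL difference was 0.27 (SE 0.12, adjusted p = 0.334), and its 8 array rows gave 0.27 to 0.30. Some of those rows had the same values as another row on every array. The rows are thus not independent measurements, and their narrow range adds no support to the difference. TP53BP1, which favours end joining, had 8.96 and 8.71 in gamma_ON, 8.54 and 8.05 in gamma_OFF, and 8.76 and 8.59 in CTRL. It differed by 0.54 between gamma_ON and gamma_OFF (SE 0.17, adjusted p = 0.084), or by 0.29 without gamma_OFF replicate 2. RIF1, which acts with TP53BP1 to limit resection, was flat across groups, at 9.82 and 9.74 in gamma_ON, 9.87 and 9.78 in gamma_OFF, and 9.85 and 9.85 in CTRL. It was the 1 member with gamma_ON below gamma_OFF, by -0.04 (95% confidence interval -0.30 to 0.21).

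Of the complex that senses and trims break ends, NBN and RAD50 gave unlike values. NBN, the subunit that recruits ATM, measured 8.41 and 8.15 in gamma_ON, 8.03 and 7.78 in gamma_OFF, and 7.95 and 7.72 in CTRL. Its difference from CTRL was 0.45 in gamma_ON (SE 0.15, adjusted p = 0.196). RAD50, the structural subunit, spanned only 10.22 to 10.35 over all 6 arrays and differed by -0.0044 between gamma_ON and CTRL (95% confidence interval -0.26 to 0.26). MRE11, the nuclease subunit, stood at 0.21 between gamma_ON and CTRL and at 0.36 between gamma_ON and gamma_OFF (SE 0.12, adjusted p = 0.0903). EXO1, an exonuclease of long-range resection, had 9.15 and 8.98 in gamma_ON, 8.82 and 8.61 in gamma_OFF, and 8.65 and 8.85 in CTRL, a difference of 0.31 from CTRL in gamma_ON (adjusted p = 0.326).

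In gamma_ON against CTRL the homologous recombination genes ran from -0.10 to 0.52. RAD51C, which acts in homologous recombination, measured 7.03 and 7.01 in gamma_ON, 6.84 and 6.57 in gamma_OFF, and 6.54 and 6.45 in CTRL. The groups did not overlap, and gamma_ON exceeded CTRL by 0.52 (SE 0.13, adjusted p = 0.0918), a value between 0.48 and 0.57 under every alternative run. Gamma_OFF lay only just above CTRL on its lower array, and gamma_OFF minus CTRL was 0.21 (SE 0.13, adjusted p = 0.303). RAD51AP1, which also acts in homologous recombination, had 8.65 and 8.49 in gamma_ON, 8.17 and 7.97 in gamma_OFF, and 8.38 and 8.40 in CTRL. Here gamma_OFF was the lowest group, and gamma_ON exceeded it by 0.50 (SE 0.13, adjusted p = 0.0505), a value just short of the threshold. BARD1, the partner of BRCA1, stood at 8.50 and 8.13 in gamma_ON, 8.00 and 7.57 in gamma_OFF, and 8.11 and 8.33 in CTRL, with gamma_OFF minus CTRL at -0.43 (SE 0.18, adjusted p = 0.148), or -0.21 without gamma_OFF replicate 2.

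None of the other recombination genes had an unadjusted p under 0.05 in gamma_ON against CTRL. PALB2, which links BRCA1 to BRCA2, differed by 0.27 between gamma_ON and CTRL, and XRCC2 and XRCC3, which act in the same pathway, by 0.10 and 0.16. The translocase genes RAD54L and RAD54B stood at 0.16 and -0.10, the lowest value of the 33 in that comparison. All 5 had adjusted p-values of 0.409 or above there.

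Among end joining genes the gamma_OFF arrays lay furthest apart. XRCC4, the scaffold of ligase IV, measured 8.40 and 8.23 in gamma_ON, 8.11 and 7.34 in gamma_OFF, and 8.26 and 8.24 in CTRL. The gap of 0.77 between its gamma_OFF arrays was the largest within any pair of replicates for these genes, and gamma_OFF minus CTRL was -0.53 (SE 0.22, adjusted p = 0.136), or -0.15 without gamma_OFF replicate 2. DCLRE1C, which encodes the nuclease Artemis, had 7.41 and 7.25 in gamma_ON, 7.11 and 6.56 in gamma_OFF, and 7.22 and 7.27 in CTRL, a gamma_OFF minus CTRL difference of -0.41 (adjusted p = 0.15), or -0.14 without gamma_OFF replicate 2. XRCC6 and XRCC5 encode the Ku proteins that cap broken ends. XRCC6 differed from CTRL by 0.07 in gamma_ON and by 0.00 in gamma_OFF (95% confidence interval -0.29 to 0.29), and XRCC5 by 0.20 and -0.04.

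In the Fanconi pathway, which removes crosslinks between DNA strands, BRIP1 and UBE2T were measured. BRIP1, a helicase that binds BRCA1, stood at 9.48 and 9.38 in gamma_ON, 9.13 and 8.83 in gamma_OFF, and 9.21 and 9.22 in CTRL. Its 3 groups did not overlap, and gamma_ON exceeded gamma_OFF by 0.45 (SE 0.13, adjusted p = 0.0703), or by 0.30 without gamma_OFF replicate 2. UBE2T, the ubiquitin-conjugating enzyme of the pathway, stayed between 8.82 and 9.06 on all arrays. Of the mismatch repair genes, PMS2 had 8.12 and 8.18 in gamma_ON, 7.90 and 7.59 in gamma_OFF, and 8.05 and 8.16 in CTRL. Its gamma_OFF minus CTRL difference was -0.35 (SE 0.13, adjusted p = 0.118), or -0.20 without gamma_OFF replicate 2, and it has many pseudogene copies, so the value is uncertain. MSH6, which recognises mismatches, had 10.16 and 10.10 in gamma_ON, 10.01 and 9.54 in gamma_OFF, and 9.94 and 10.04 in CTRL. Its gamma_OFF minus CTRL difference was -0.21 (95% confidence interval -0.57 to 0.15), or 0.028 without gamma_OFF replicate 2, so its sign rested on that array.

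Of the base excision and single-strand break genes, PARP1 and XRCC1 stood above CTRL in gamma_OFF, and PARP2 and OGG1 below it. PARP1, the main sensor of strand breaks, had 10.39 and 10.29 in gamma_ON, 10.25 and 10.17 in gamma_OFF, and 10.08 and 10.10 in CTRL, so its groups did not overlap and it differed from CTRL by 0.25 and 0.12. PARP2, its relative, had 8.54 and 8.53 in gamma_ON, 8.27 and 7.88 in gamma_OFF, and 8.35 and 8.57 in CTRL, and stood at -0.38 in gamma_OFF (SE 0.15, adjusted p = 0.133), or -0.18 without gamma_OFF replicate 2. XRCC1, the scaffold of single-strand break repair, differed from CTRL by 0.18 in gamma_ON and 0.14 in gamma_OFF. It had 10.70 and 10.90 in gamma_OFF and 10.65 and 10.66 in CTRL, so most of the gamma_OFF difference rested on replicate 2. The oxidised guanine glycosylase gene OGG1 differed from CTRL by 0.13 in gamma_ON and -0.12 in gamma_OFF.

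**Figure D4:**
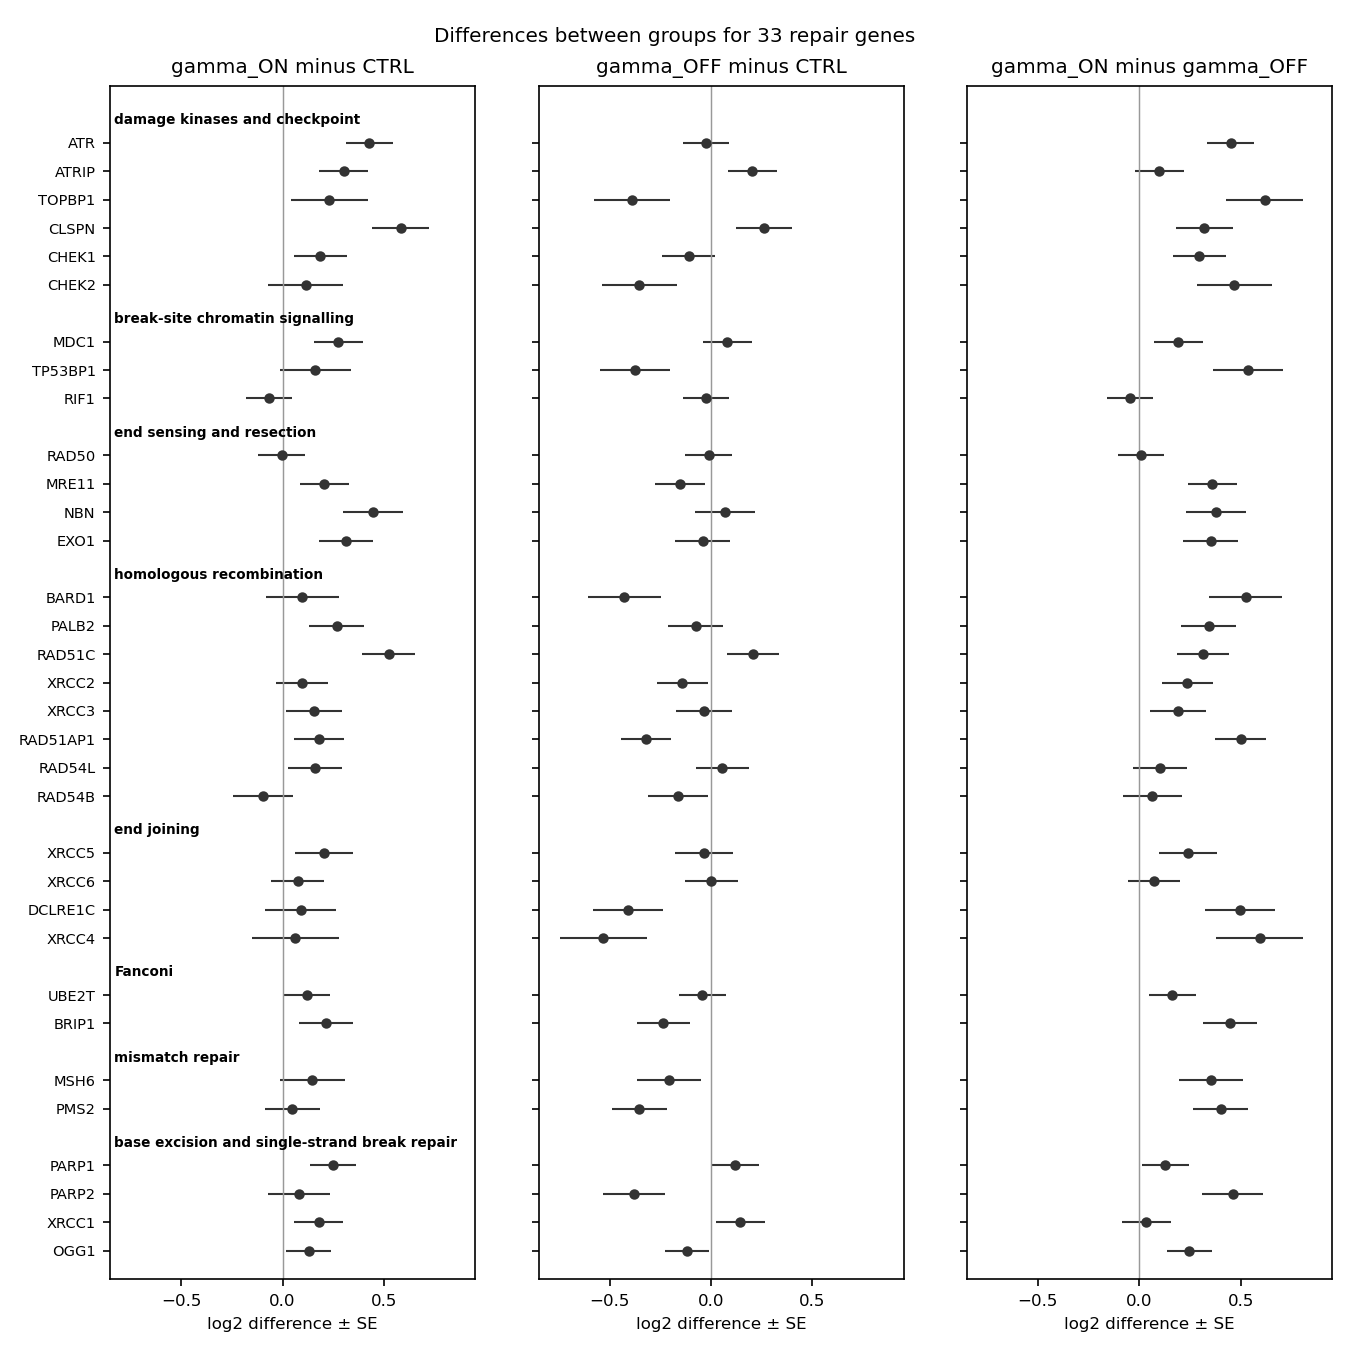
Log2 difference with its standard error from limma for each of the 33 repair genes, in gamma_ON minus CTRL, gamma_OFF minus CTRL and gamma_ON minus gamma_OFF, with genes grouped by pathway. CLSPN at 0.58 is the highest in the first panel, XRCC4 at -0.53 the lowest in the second and TOPBP1 at 0.62 the highest in the third; no gene passed the adjusted threshold.

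Set side by side, checkpoint and resection genes had the highest medians in gamma_ON against CTRL and end joining genes the lowest. The median log2 difference was 0.27 for damage kinases and checkpoint genes (6 genes), 0.26 for end sensing and resection (4), 0.17 for Fanconi (2), 0.16 for break-site signalling (3) and for homologous recombination (8), 0.15 for base excision (4), 0.10 for mismatch repair (2) and 0.08 for end joining (4). After quantile normalization the checkpoint and resection medians were 0.22 and 0.19, and the end joining median was 0.045 and the mismatch median 0.043. Checkpoint and resection genes thus stayed highest, while the lowest place passed to mismatch repair. At limma's unadjusted p under 0.05 the 7 genes here were ATR, CLSPN and ATRIP (checkpoint), NBN and EXO1 (resection), MDC1 (break-site) and RAD51C (recombination). Those groups held most of the measured members (6, 4, 3 and 8 genes). In the companion set described below, other pathways also had such genes. In gamma_OFF against CTRL mismatch repair at -0.28 and end joining at -0.22 were lowest, the other pathways lay between -0.14 and -0.02, and base excision stood at 0.00. After quantile normalization mismatch repair stood at -0.17 and end joining at -0.18, while the other 6 pathways were above 0. Without gamma_OFF replicate 2 the mismatch repair median was -0.086 and the end joining median 0.0021. The pathways hold 2 to 8 measured genes each, the values are descriptions, and no difference between pathways was tested.

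A further 104 repair genes outside the 57 were listed as a companion set, and 57 of them had a named row. Their median was 0.11 in gamma_ON against CTRL with 41 of 57 above 0, -0.09 in gamma_OFF against CTRL with 17 above 0, and 0.21 in gamma_ON against gamma_OFF with 47 above 0. In gamma_ON against CTRL 0 of 57 were called, against 1.55% of all genes. At limma's unadjusted p under 0.05 there were 12 higher and 2 lower, against 8.65% and 6.15% of all genes. The 12 were other checkpoint (4), base excision (3), recombination (2), break-site (1), Fanconi (1) and mismatch repair (1) genes. In gamma_OFF against CTRL 0 of 57 were called, against 8.85% of all genes, and at limma's unadjusted p under 0.05 there were 1 higher and 8 lower, against 14.1% and 16.3% of all genes. In gamma_ON against gamma_OFF 1 of 57 was called, against 5.99% of all genes. It was MND1, a cofactor of strand exchange in meiosis. It measured 7.75 and 7.63 in gamma_ON, 7.26 and 7.11 in gamma_OFF, and 7.19 and 7.23 in CTRL, and rose by 0.50 over gamma_OFF (SE 0.12, adjusted p = 0.0462). By pathway, the other checkpoint genes had the highest median in gamma_ON against CTRL, 0.22 over 9 genes. The median was 0.14 for other Fanconi (6 genes) and other base excision genes (12), and 0.11 for other homologous recombination genes (13). It was 0.08 for other end joining (2), 0.07 for other mismatch repair (4), and 0.03 for other break-site signalling (7) and nucleotide excision genes (4).

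Genes of the cell cycle also read highest in gamma_ON. In gamma_OFF against CTRL their medians had the opposite sign to that of the repair genes as deposited, but not after rescaling of the arrays. The 24 measured genes of the G1/S transition had a median difference of 0.45 in gamma_ON against CTRL, with 24 of 24 above 0, and the 23 measured G2/M genes had 0.29, with 22 above 0. In gamma_OFF against CTRL the G1/S median was 0.12 with 19 of 24 above 0 and the G2/M median 0.031 with 15 of 23 above 0. For the repair genes it was -0.07 with 9 of 33 above 0. After quantile normalization the G1/S median was 0.25 and the G2/M median 0.17. With a common median and SD they were 0.24 and 0.23. The repair gene median was also above 0 under both rescalings, at 0.039 and 0.023, but near the medians over all genes of 0.025 and 0.041. Without gamma_OFF replicate 2 the G1/S median was 0.22 and the G2/M median 0.13. The repair gene median stayed below 0 whichever array was left out. On the single arrays the median deviation of the G1/S genes was 0.31 and 0.19 in gamma_ON, 0.04 and -0.23 in gamma_OFF, and -0.21 and -0.15 in CTRL. For the G2/M genes it was 0.22 and 0.11 in gamma_ON, 0.02 and -0.15 in gamma_OFF, and -0.10 and -0.13 in CTRL. Gamma_ON replicate 1 was the highest array and gamma_OFF replicate 2 the lowest for all 3 lists, the repair genes included. In CTRL the cycle genes lay below their mean by more than the repair genes did. The part of the cell cycle in the repair gene values was not tested. In RNA from whole cultures, fewer cells of a kind and less RNA per cell cannot be told apart.

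**Figure D5:**
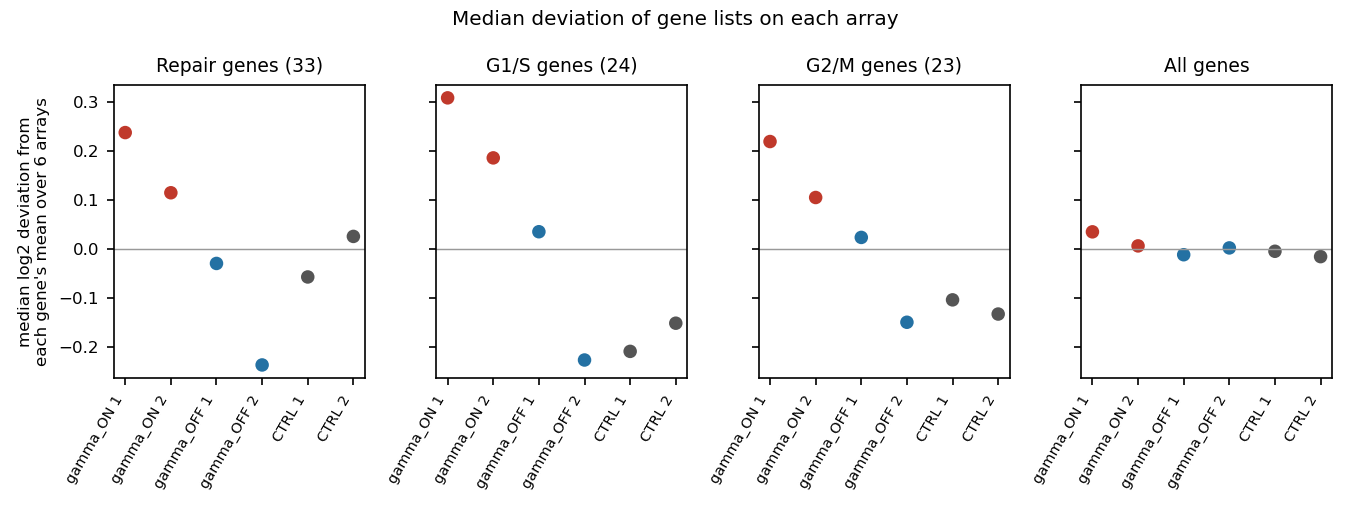
Median log2 deviation from each gene's mean over the 6 arrays, for 33 repair genes, 24 G1/S genes, 23 G2/M genes and all 14884 genes, with 1 point per array (red, gamma_ON; blue, gamma_OFF; grey, CTRL). Gamma_ON replicate 1 is highest and gamma_OFF replicate 2 lowest in the first 3 panels, while the medians of all genes lie within 0.04 of 0.

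Markers of pluripotency and of other cell types also differed between the groups. The 10 measured endoderm markers of 12 had a log2 summed level of 13.43 to 13.53 in gamma_ON, 11.40 to 11.43 in gamma_OFF and 11.83 to 12.19 in CTRL. In gamma_ON against CTRL 5 were called higher and 1 lower, against 0.739% and 0.806% of all genes. In gamma_OFF against CTRL 1 was called higher and 4 lower, against 2.77% and 6.08% of all genes. The 14 measured pluripotency markers of 15 had 14.56 to 14.62 in gamma_ON, 14.65 to 14.66 in gamma_OFF and 14.40 to 14.48 in CTRL. Of 15 fibroblast markers 5 were measured, with 11.20 to 11.22 in gamma_ON, 10.56 to 10.67 in gamma_OFF and 11.03 to 11.23 in CTRL. The 9 measured neuroectoderm markers of 10 had 11.34 to 11.38 in gamma_ON, 11.40 to 11.43 in gamma_OFF and 11.72 to 11.74 in CTRL. In gamma_ON against CTRL 2 pluripotency markers were called higher, and 1 fibroblast and 2 neuroectoderm markers lower. In gamma_OFF against CTRL 1 pluripotency marker was called higher, and 2 fibroblast and 3 neuroectoderm markers lower. What part the mix of cell types has in the repair gene values was not tested.

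Promoters are shown for ATR, CLSPN, RAD51C and RAD51AP1, the 4 measured members with the lowest F test p, since they mark the patterns described above. The windows are RefSeq's on GRCh38.p14, run from 250 bases before to 50 bases after the annotated start, and are written 5′ to 3′ on the gene's strand. Capitals mark matches to an E2F motif, searched as TTTCCCGC, TTTCGCGC, TTTGCCGC or TTTGGCGC, and to the CCAAT box, searched as CCAAT, each on both strands. The windows lie at chr3:142578684-142578983 on the minus strand, chr1:35769929-35770228 on the minus strand, chr17:58692323-58692622 on the plus strand and chr12:4538640-4538939 on the plus strand. Each window spans the annotated start of its own gene, and the CLSPN window also overlaps the annotated gene CLSPN-DT. RAD51C has 2 annotated windows, of which the upstream one is printed.
ATR: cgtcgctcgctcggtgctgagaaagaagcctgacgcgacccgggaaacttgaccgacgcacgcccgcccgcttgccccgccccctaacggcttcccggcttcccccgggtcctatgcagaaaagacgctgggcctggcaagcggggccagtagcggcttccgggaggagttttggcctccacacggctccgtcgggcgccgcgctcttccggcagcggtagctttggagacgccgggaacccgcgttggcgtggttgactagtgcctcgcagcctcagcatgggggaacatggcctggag
CLSPN: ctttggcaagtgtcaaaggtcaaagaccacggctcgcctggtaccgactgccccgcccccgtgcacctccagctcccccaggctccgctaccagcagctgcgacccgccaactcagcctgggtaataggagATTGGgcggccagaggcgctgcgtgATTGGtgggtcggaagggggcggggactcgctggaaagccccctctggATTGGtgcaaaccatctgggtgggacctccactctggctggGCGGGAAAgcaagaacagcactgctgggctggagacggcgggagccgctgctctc
RAD51C: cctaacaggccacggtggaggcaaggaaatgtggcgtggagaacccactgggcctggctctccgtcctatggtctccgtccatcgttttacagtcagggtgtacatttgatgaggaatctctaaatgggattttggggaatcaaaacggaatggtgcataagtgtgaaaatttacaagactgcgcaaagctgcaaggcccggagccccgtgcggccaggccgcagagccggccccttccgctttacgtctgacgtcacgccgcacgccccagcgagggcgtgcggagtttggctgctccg
RAD51AP1: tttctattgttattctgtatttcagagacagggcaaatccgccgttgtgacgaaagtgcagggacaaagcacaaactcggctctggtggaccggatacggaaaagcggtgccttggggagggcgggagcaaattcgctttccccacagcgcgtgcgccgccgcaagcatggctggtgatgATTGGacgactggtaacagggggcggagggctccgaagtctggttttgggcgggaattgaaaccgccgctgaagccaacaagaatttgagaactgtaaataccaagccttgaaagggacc
The CLSPN window holds 1 E2F match across the start site, from -5 to 3 counted from the first transcribed base, and 3 CCAAT boxes on the minus strand of the gene. RAD51AP1 holds 1 CCAAT box, and the ATR and RAD51C windows hold no match to either.

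Over all members with a window, 7 of 30 measured genes held an E2F match, or 23.3%. This compares with 5.38% of the 10749 array genes with a window, 3.99% of all 27305 genes with a RefSeq window and 73.7% of 19 G1/S genes. The 7 measured members with an E2F match were CLSPN, TOPBP1, EXO1, XRCC2, XRCC6, MSH6 and PMS2. A CCAAT box stood in 21 of 30, or 70%, against 41.4% of array genes and 39.7% of all genes. The cell cycle homology region, searched as TTTGAA on both strands, stood in 5 of 30, or 16.7%, against 15.3% of array genes, 18.2% of all genes and 65% of 20 G2/M genes. The 7 members with an E2F match had a median gamma_ON minus CTRL difference of 0.15, and the 23 without one had 0.16. A match is a run of letters and does not show that a factor binds there.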

How the data were processed

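Total RNA of 6 samples was hybridised to Affymetrix human gene arrays, 1 array per sample. The deposited values are log2 levels per array row. RMA, a method that adjusts background, equalizes arrays and combines probes, and Partek 6.6 were used, per the submitters' processing notes. Their options were not stated; the genome build is not given in the sources used here, nor is its annotation, and the log2 scale was read from the values. Of 53617 rows, 16098 had 1 gene symbol in the platform annotation, 0 had several and 37519 are unnamed here. The brightest row per gene, by mean over the 6 arrays, was kept, which left 14884 genes. Groups and replicate numbers came from the sample descriptions.

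Under R 4.3.3, a linear model from limma 3.58.1 with plain eBayes moderation was fitted to all 6 arrays, with 3 residual and 6.05 prior degrees of freedom, and tests were two-sided. With 2 arrays a side the smallest exact p is 0.333, and exact tests were left out. The number of arrays limits the precision. All 33 measured members passed the brightness limit used in 1 alternative. The script was tested on simulated data. Members, lists and tests were chosen with earlier results of these data known. The rule for named genes let every member be named, always named ATM, ATR, PRKDC, CHEK1, CHEK2, BRCA1 and BRCA2, and named called genes of the companion repair set, with other lists given by counts, medians and summed levels. Array values are printed for the member with the lowest F test p in each pathway and for further members chosen after their values were seen. Alternatives varied the spread model, array weights, the groups fitted, removal of dim genes, scaling, rows per gene, rows tested, the threshold and a replicate block.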

Additional observations from a re-analysis of the deposited data

How the results depend on the processing

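Counts of called members rested on the settings, since several adjusted p-values lay near the threshold. In gamma_ON against CTRL limma called 0 of 33 on the values as reported. It called 1 with trend and robust fitting (CLSPN), 3 with array weights (ATR, CLSPN and RAD51C) and 1 with only the 2 groups compared (RAD51C). It called 2 with dim genes left out (CLSPN and RAD51C) and 2 at a threshold of 0.10. The background shares were 2.56%, 5.4%, 3.27%, 3.54% and 3.41% for the 5 settings that kept all arrays of the groups compared. In gamma_ON against gamma_OFF it called 4 with trend and robust fitting, 5 with dim genes left out, 1 with the mean of all rows of a gene (RAD51AP1), 10 at a threshold of 0.10, and 0 to 14 with 1 array left out. Background shares were 10.7%, 17.5%, 6.22% and 21%. In gamma_OFF against CTRL the count was 0 in every setting but the one without gamma_OFF replicate 1, with 0 to 8 over the arrays left out. The F test called 3 with trend and robust fitting, 3 with array weights, 4 with dim genes left out, 1 with the mean of all rows, 4 at a threshold of 0.10, and 0 to 13 with 1 array left out. Background shares were 13.8%, 8.06%, 20.2%, 8.4% and 22.6%, and 26.9% without gamma_OFF replicate 1, so the member shares of 9.09%, 9.09%, 12.1%, 3.03% and 12.1% lay near or below them, and 39.4% above.

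The median over the 33 genes ran from 0.12 to 0.26 in gamma_ON against CTRL, from -0.18 to -0.016 in gamma_OFF against CTRL and from 0.22 to 0.43 in gamma_ON against gamma_OFF with 1 array left out. Quantile normalization gave 0.039 for gamma_OFF against CTRL and 0.15 for gamma_ON against gamma_OFF, and a common median and SD gave 0.22 for gamma_ON against gamma_OFF. The cause was not tested. The replicate numbers are shared across groups. The correlation of replicate deviations between groups was 0.088 (gamma_ON with gamma_OFF), -0.096 (gamma_ON with CTRL) and -0.073 (gamma_OFF with CTRL) over all genes. Low values of this kind do not settle whether the samples were handled in pairs. Among the 33 members replicate 1 was the higher for 29 in gamma_ON, 28 in gamma_OFF and 9 in CTRL. With a replicate block limma called 0 of 33 in each comparison and 0 by the F test.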
